A study of Mus musculus with 18 samples.

Results

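The nuclear genes for subunits of the mitochondrial respiratory chain were followed through 18 RNA-seq libraries made from the wild type mouse line E14, either as embryonic stem (ES) cells or after neural differentiation. Members were the rows of the gene count tables whose symbol begins with Ndufa, Ndufb, Ndufs, Ndufc or Ndufv and a number (complex I), is Sdha, Sdhb, Sdhc or Sdhd (complex II), begins with Uqcr (complex III), or begins with Cox4 to Cox8 and a letter (complex IV). The rule found 66 of 23420 genes, with 36 in complex I, 4 in complex II, 8 in complex III and 18 in complex IV. Of these, 63 passed the filter on low counts. Ndufs5 was listed at 0 in every library, and 22.9% of its 50-base stretches were shared with 1 pseudogene. The other members that did not pass were Cox8b and Cox8c, both under 1 CPM in every group (counts scaled to library size, the unit of all levels given), as were Ndufs5 and Cox7b2. The rule reads symbols alone, so Ndufa4, now placed in complex IV, is counted here with complex I, and Cyc1, cytochrome c1 of complex III, is not a member. The subunits encoded by mitochondrial DNA were not analysed here, and 0 symbols of that kind stood in the files.

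The respiratory chain passes electrons from NADH (complex I) and succinate (complex II) through complex III to oxygen at complex IV, and the proton gradient built on the way drives ATP synthase. Each complex has a core that does the chemistry and accessory subunits around it, and several complex IV subunits come in isoforms that differ between tissues. ES cells are known for a high rate of glycolysis, and neurons for their reliance on respiration.

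There were 9 groups with 2 libraries each. ES cells, grown with leukemia inhibitory factor and serum, were the control or received 1 µM GW3965 (an agonist of the liver X receptors), 1 µM LG268 (an agonist of the retinoid X receptors) or both for 24 h. Differentiated cultures, made through embryoid bodies with 5 µM retinoic acid, were taken at day 8, day 16 and day 17, and also at day 16 and day 17 with GW3965. All cells were of 1 line, the retinoic acid step was common to the 5 differentiated groups, and the labels give no exposure time for GW3965 in them. Whether the 2 libraries of a group came from separate cultures is not stated, so p-values measure only the spread between these libraries, which may be technical.

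Gene counts per library were 16.75 M to 44.79 M reads, with a median of 23.51 M. The 9 ES marker genes summed to 2650 to 2940 CPM in the 8 ES libraries and 117 to 263 CPM in the 10 differentiated ones, and the 10 neuron markers to 447 to 537 CPM and 1610 to 3980 CPM. The differentiated cultures also held 6 mesenchyme markers at 1440 to 11400 CPM, against 77.4 to 117 CPM in ES cells. In such bulk samples fewer cells of a type and less RNA per cell cannot be told apart. The 4 day 17 files list 31.84 to 33.53% of reads as aligned more than once and the other 14 files list none. Among the 59 members at 5 CPM or more at day 16, 19 (32.2%) had less than 0.5 times that level at day 17, against 8.6% of 12612 genes, and 12 of those 19 share no 50-base stretch with another annotated gene. Day 17 levels are therefore set beside day 17 GW3965 only.

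Outside day 17, 39 of the 63 members tested had a highest group mean under 1.5 times the lowest, and 9 exceeded 2 times. The same ratio was not computed over all genes, so whether this range is narrow for genes of such levels is not known. Cox4i1, the main form of subunit 4 of complex IV, ran only from 308 to 377 CPM over the 7 groups. Per kilobase of exon, the scale for levels between genes, Cox4i1 was at 485 CPM per kb in ES control, Ndufa7 at 247, Cox5a at 236, Sdhd at 144 and Sdha at 107. The widest ranges belonged to complex IV isoforms. Cox6b2 spanned 9.16 to 48.6 CPM and Cox7a1 1.21 to 9.57 CPM, and the low Cox4i2 0.529 to 2.73 CPM.

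Those isoforms gave the clearest pattern. For each pair, the share of counts per base held by the rarer isoform was computed within a library, a value that does not depend on how libraries are scaled. Cox6b2, known as the testis form of subunit 6b, held 22.2 and 21.3% of Cox6b1 plus Cox6b2 in the ES control libraries, 4.99 and 3.84% at day 8, and 12 and 12% at day 16. It was high in all 8 ES libraries (19.2 to 23.1%), lowest at day 8 and intermediate at day 16, and none of these 3 sets of libraries overlapped. Cox7a1, the heart and skeletal muscle form of subunit 7a, held 12.7 and 14.2% of its pair with Cox7a2 in ES control, 1.66 and 2.28% at day 8, and 3.77 and 2.88% at day 16. Cox4i2, a form of subunit 4 known from lung and from its response to low oxygen, held 0.64 and 0.778%, then 0.144 and 0.153%, then 0.329 and 0.329%. Cox6a2, the heart and muscle form of subunit 6a, went the other way, from 2 and 0 counts in ES control to 0.132 and 0.214% of its pair at day 8 and 0.407 and 0.409% at day 16. Exons of Cox6a2 overlap those of the antisense gene Itgad, and the strand setting of the counting is not given in the sources used here.

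**Figure D1:**
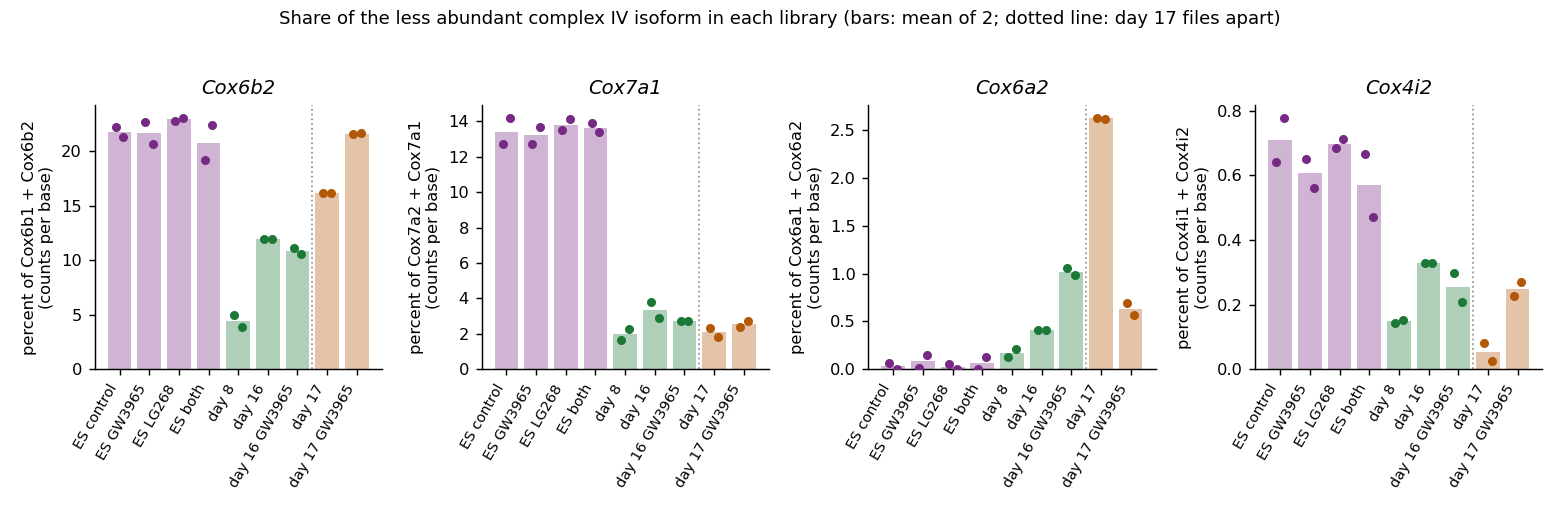
Share of the rarer isoform in the length-scaled counts of its pair (percent, y axis) in each of the 9 groups, with bars for the mean of 2 libraries and points for the libraries. Cox6b2 stands at 19.2 to 23.1% in the ES libraries and 3.84 to 4.99% at day 8, Cox7a1 falls from 12.7 to 14.2% to under 4%, and the day 17 groups right of the dotted line are compared with each other only.

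The levels behind the shares changed past the test (edgeR, adjusted p below 0.05, here called). Cox6b2 was at 45.2 and 45.1 CPM in ES control, 10.4 and 7.87 CPM at day 8, and 23.5 and 24.8 CPM at day 16. It fell 4.96-fold to day 8 (log2 -2.31, SE 0.108, adjusted p = 7.85e-14) and then rose 2.66-fold to day 16 (log2 1.41, SE 0.11, adjusted p = 1.42e-09). Cox7a1 fell 7.42-fold to day 8, from 8.61 and 9.48 to 1.01 and 1.4 CPM (log2 -2.89, SE 0.219, adjusted p = 1.82e-10), and its step to day 16 did not pass (log2 0.39, 95% interval -0.14 to 0.92). Cox4i2 fell from 2.42 and 3.04 to 0.503 and 0.555 CPM (adjusted p = 2.25e-06). The partner Cox6b1 rose slightly, from 132 and 139 to 166 and 164 CPM (log2 0.29, adjusted p = 0.000346), and Cox7a2 stood at 73.2 and 70.7 and then 73.4 and 74.3 CPM (log2 0.04, 95% interval -0.16 to 0.24). The falls of Cox6b2, Cox7a1 and Cox4i2 to day 8 and to day 16 were called under every setting tried. Cox8c, the testis form of subunit 8, had 1 to 5 counts in each of the 8 ES libraries and 0 in all 10 differentiated ones, where 3 counts would allow up to 0.179 CPM. The 3 germ line markers summed to 88 to 109 CPM in ES cells and 2.48 to 6.66 CPM in the differentiated groups, none of them at 0. From day 8 to day 16, where Cox6b2 rose, their sum went down, from 6.46 to 6.66 CPM to 3.7 to 3.91 CPM. The 11 muscle markers summed to 40.7 to 53.7 CPM in ES cells and 67 to 149 CPM at days 8 and 16, with Myod1 at 0 at day 8. The part of either list in these isoform values was not tested.

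The promoters of Cox6b2 and Cox7a1 and of their partners in the pair are shown as RefSeq gives them on GRCm38.p6, as the 250 bases before the transcription start, 5′ to 3′ on the gene's strand. Cox6b1 lies at chr7:30626115-30626364 (- strand), Cox6b2 at chr7:4753095-4753344 (- strand), Cox7a2 at chr9:79759854-79760103 (- strand) and Cox7a1 at chr7:30183921-30184170 (+ strand), with the genome's strand given for each gene. Capitals mark a GABPA site (CCGGAAG or its reverse complement) in Cox6b1 and an Sp1 site (GGGCGG or its reverse complement) in Cox6b2 and Cox7a2.
Cox6b1: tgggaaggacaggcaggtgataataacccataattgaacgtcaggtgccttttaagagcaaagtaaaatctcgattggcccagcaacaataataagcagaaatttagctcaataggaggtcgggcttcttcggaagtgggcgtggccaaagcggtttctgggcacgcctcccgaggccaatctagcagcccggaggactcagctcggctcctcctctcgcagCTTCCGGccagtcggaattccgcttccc
Cox6b2: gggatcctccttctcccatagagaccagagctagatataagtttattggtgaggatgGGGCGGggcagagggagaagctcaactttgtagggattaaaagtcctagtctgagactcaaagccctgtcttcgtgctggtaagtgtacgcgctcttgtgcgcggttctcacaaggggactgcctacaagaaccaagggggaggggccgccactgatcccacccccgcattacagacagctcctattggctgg
Cox7a2: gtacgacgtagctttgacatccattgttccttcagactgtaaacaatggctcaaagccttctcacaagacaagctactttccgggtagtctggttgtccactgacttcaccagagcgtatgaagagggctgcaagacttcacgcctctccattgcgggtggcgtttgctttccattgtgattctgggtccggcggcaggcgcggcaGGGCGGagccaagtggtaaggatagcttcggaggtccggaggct
Cox7a1: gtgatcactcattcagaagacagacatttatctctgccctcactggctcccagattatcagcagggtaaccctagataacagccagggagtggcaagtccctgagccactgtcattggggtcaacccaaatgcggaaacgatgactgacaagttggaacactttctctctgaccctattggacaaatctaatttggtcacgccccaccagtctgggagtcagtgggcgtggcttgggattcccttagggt
Cox6b1 and Cox7a2 held 14 CpG dinucleotides each in these bases, Cox6b2 held 8 and Cox7a1 held 4. None of the 5 motifs searched stood in the Cox7a1 bases.

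Over the family, 53 members had a promoter window in the RefSeq table (250 bases before to 50 after the start). Both strands were searched, and each motif was counted on its own even where letters overlap. The GABPA letters CCGGAAG stood in 11 windows (20.8%, against 8.86% of all 32851 promoters in the table), the YY1 letters AAGATGGC in 7 (13.2 against 2.75%), the NRF1 letters GCGCATGCG in 5 (9.43 against 1.75%), the estrogen related receptor letters TCAAGGTCA in 1, that of Sdhd (1.89 against 0.423%), and the Sp1 letters GGGCGG in 22 (41.5 against 35.7%). At least 1 of the GABPA, YY1 and NRF1 motifs stood in 21 windows (39.6%, against 12.5%). The 2 sets are unlike. Each member gave 1 window, the one nearest its annotated start, whereas the 32851 include every window of a gene and genes not tested here. NRF1 and GABPA are textbook regulators of respiratory genes. A match of letters is a description and no evidence of binding.

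From ES cells to day 8 the subunits did not move as a block. Of the 63 tested, 18 rose and 23 fell, against 39.7% of all 17166 genes tested that rose and 39.1% that fell, so the shares of 28.6 and 36.5% lie near or under the background. The median log2 change was 0.02, against 0 over all genes. In complex I 11 rose and 6 fell, in complex II 1 rose and 3 fell, in complex III 2 rose and 4 fell, and in complex IV 4 rose and 10 fell, with medians of 0.06, -0.35, -0.18 and -0.37. The split depends on scaling. With unscaled library totals, which shift the median of all genes by 0.13, it was 27 higher and 17 lower, and with offsets for GC content and exon length it was 38 higher and 13 lower. The members' median exon length was 920 bases, against 3143 over all genes tested. Calls that held in every setting were 8 rises (Cox6b1, Ndufa13, Ndufa2, Ndufa3, Ndufa5, Ndufb9, Ndufs8 and Sdhb) and 11 falls (Cox4i2, Cox6b2, Cox7a1, Cox7a2l, Cox7b, Cox7c, Ndufa7, Ndufs6, Sdha, Sdhd and Uqcrc1). Ndufa13, Cox7a2l, Cox7c, Ndufa7 and Ndufs6 share 1% or more of their 50-base stretches with other genes. They were therefore not tested in the setting limited to genes under 1%, and could not lose their call there.

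**Figure D2:**
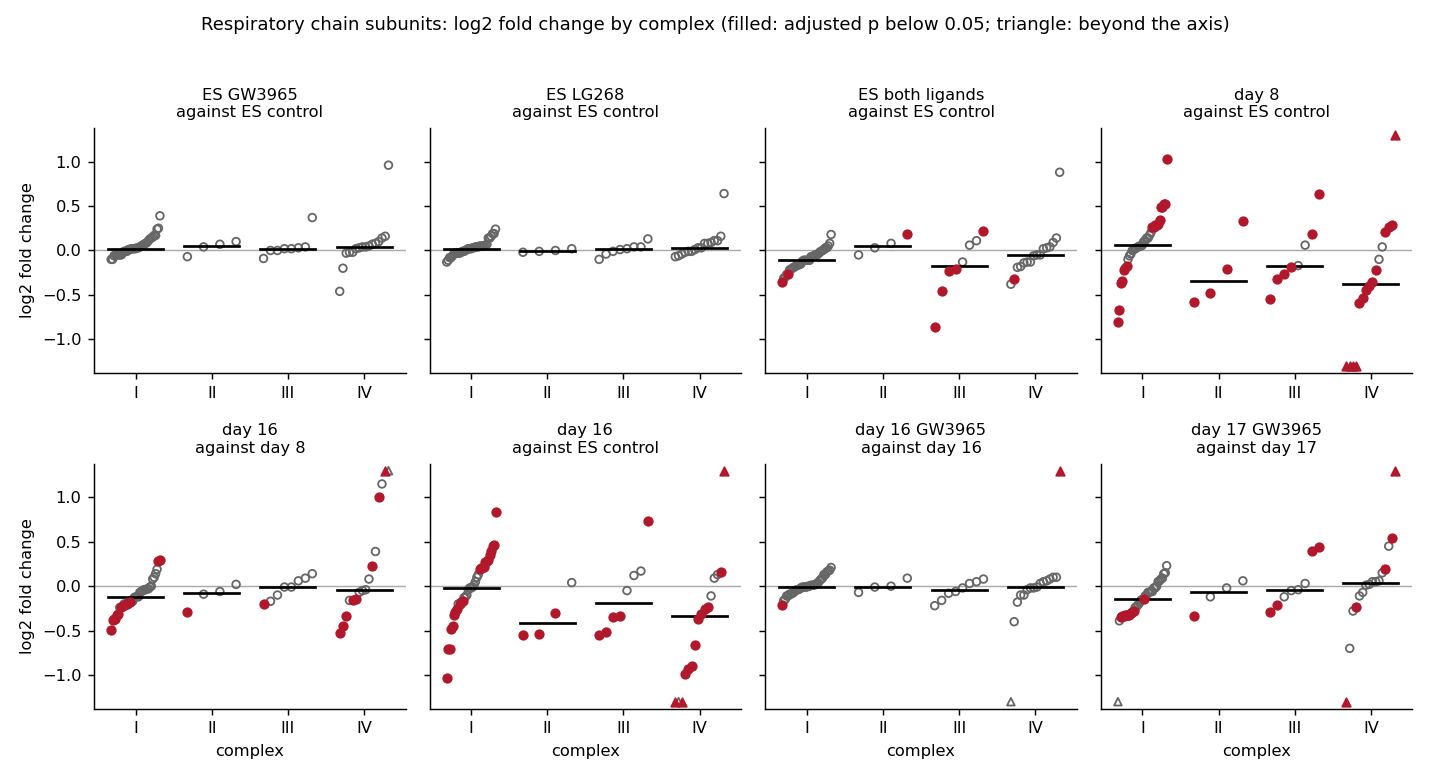
Log2 fold change (y axis) of each tested member by complex (x axis) in 8 comparisons, with filled red symbols for adjusted p below 0.05, open grey symbols for the rest, black bars for the median of the complex and triangles for values beyond 1.3. No symbol is filled for GW3965 or LG268 alone in ES cells, and day 8 shows both rises and falls in all 4 complexes.

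Within complex I, accessory subunits parted. Ndufa5, an accessory subunit of the arm that reaches into the matrix, rose 2.04-fold, from 18.1 and 18.7 to 37.3 and 37.7 CPM (log2 1.03, SE 0.113, adjusted p = 5.67e-08). Ndufa7 fell 1.75-fold, from 123 and 138 to 79.9 and 69.1 CPM (log2 -0.81, SE 0.075, adjusted p = 4.23e-09), and Ndufs6, needed for a late step of complex I assembly, from 36.6 and 40.2 to 25.2 and 23.1 CPM (log2 -0.67, adjusted p = 4.17e-06). That the ES control and day 8 libraries do not overlap was part of the rule that named these genes, so it adds no support. Other large rises were Ndufa2 (48.7 to 69.9 CPM), Ndufb2 (15.9 to 22.6 CPM) and the iron-sulfur core subunit Ndufs8 (45.8 to 64.5 CPM), at log2 0.52, 0.52 and 0.49. Among other core subunits, Ndufv1, which binds NADH, had log2 0.02, Ndufs1 0.1, Ndufs3 0.17 and Ndufs7 0.01, and these 4 did not pass, while Ndufv2 fell by 0.22 (adjusted p = 0.00736) but stood at 0.00 with the GC and length offsets. Exons of Ndufa2, Ndufa3, Ndufa13, Ndufb2, Ndufb9 and Ndufs6 overlap those of another gene, and the strand setting of the counting is not given in the sources used here.

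In complex II the 4 subunits split. Sdha, the flavoprotein that oxidizes succinate, was at 308 and 313 CPM in ES control and 220 and 224 CPM at day 8 (log2 -0.48, SE 0.0552, adjusted p = 1.05e-07). Sdhd, a membrane anchor, fell from 177 and 177 to 119 and 120 CPM (log2 -0.58, SE 0.0581, adjusted p = 1.62e-08), and Sdhc, the other anchor, from 104 and 99.5 to 87.3 and 88.6 CPM (log2 -0.21, adjusted p = 0.0064). Sdhb, the iron-sulfur subunit, rose instead, from 113 and 121 to 145 and 147 CPM (log2 0.33, SE 0.0636, adjusted p = 0.000101). The calls of Sdha, Sdhb and Sdhd held in every setting. The difference between Sdhb and the other subunits within a library was not itself tested. The RefSeq bases before the start of Sdha, at chr13:74350241-74350490 (- strand), and of Sdhb, at chr4:140961021-140961270 (+ strand), are shown because the subunits moved in opposite directions, with Sp1 letters in capitals. The Sdhb window also holds the GABPA letters beyond its start, and the Sdha bases hold none of the 5 motifs. The window of Sdhd, which fell like Sdha, holds the GABPA, Sp1 and estrogen related receptor letters. A link between letters and direction was not tested.
Sdha: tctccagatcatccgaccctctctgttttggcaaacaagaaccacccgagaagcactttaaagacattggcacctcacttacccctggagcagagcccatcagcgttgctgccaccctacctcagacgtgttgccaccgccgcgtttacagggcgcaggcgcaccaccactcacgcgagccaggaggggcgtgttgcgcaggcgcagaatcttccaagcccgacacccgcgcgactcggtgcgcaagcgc
Sdhb: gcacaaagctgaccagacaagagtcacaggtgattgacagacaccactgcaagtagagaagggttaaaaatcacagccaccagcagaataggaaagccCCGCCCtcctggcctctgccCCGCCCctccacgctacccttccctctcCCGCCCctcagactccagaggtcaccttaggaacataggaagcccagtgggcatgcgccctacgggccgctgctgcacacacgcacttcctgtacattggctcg

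In complex III the fall of Uqcrc1, a core subunit, held in every setting at day 8. It was at 233 and 245 CPM in ES control and 163 and 164 CPM at day 8 (log2 -0.55, SE 0.0599, adjusted p = 5.34e-08), Uqcrc2 had log2 -0.26 (adjusted p = 0.00112) and Uqcrfs1, the Rieske iron-sulfur protein, log2 -0.32 (adjusted p = 0.000138). With GC and length offsets Uqcrc2 stood at -0.07 (adjusted p = 0.184) and Uqcrfs1 at -0.03 (adjusted p = 0.614), and the Uqcrc2 call was also lost with unscaled totals. The small subunit Uqcrq rose from 21.3 and 26.2 to 35.7 and 37.9 CPM (log2 0.63, SE 0.22, adjusted p = 0.0133), and Uqcrh, the hinge protein next to cytochrome c1, from 105 and 119 to 126 and 128 CPM (log2 0.19, adjusted p = 0.0365).

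In complex IV, besides the isoforms above, calls went both ways at day 8. Cox7b fell from 123 and 131 to 84.7 and 84.4 CPM (log2 -0.59, SE 0.0674, adjusted p = 1.15e-07), Cox7c from 54.1 and 61.6 to 41 and 39.1 CPM (log2 -0.53, adjusted p = 0.000287) and Cox7a2l, a protein that joins complexes III and IV into supercomplexes, from 149 and 158 to 119 and 106 CPM (log2 -0.45, adjusted p = 5.34e-07). Cox5a, an early assembly subunit, fell from 150 and 154 to 115 and 116 CPM (log2 -0.4, adjusted p = 3.05e-06), Cox8a had log2 -0.35 (adjusted p = 0.000174) and Cox6c log2 -0.22 (adjusted p = 0.00403). With GC and length offsets these 3 falls were lost, at log2 -0.08, -0.02 and 0.06. Cox6a1, the general form of subunit 6a, rose from 109 to 125 CPM (log2 0.21, adjusted p = 0.00898), as did Cox6b1. Cox5b had log2 0.26 (adjusted p = 0.0466), a call lost in 8 of 15 settings. Cox4i1 (log2 -0.1, 95% interval -0.21 to 0.01) did not pass. Cox7b2, the testis form of subunit 7b, had 9 and 8 counts in ES control and 2 and 0 at day 8.

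Between day 8 and day 16 a smaller share of members than of all genes rose, and the share that fell was near that of all genes. Of the 63 tested, 5 rose and 19 fell (7.94 and 30.2%), against 29.4% of all genes that rose and 32.2% that fell, and the median was -0.07 against -0.04 over all genes. The split was 9 higher and 11 lower with unscaled totals, 6 and 14 with DESeq2 size factors and 2 and 27 with GC and length offsets. Complex I gave 12 of the 19 falls, among its 35 members tested, and complex IV 5, among 16. Cox5a fell further, from 115 and 116 to 79 and 80.7 CPM (log2 -0.53, SE 0.0592, adjusted p = 2.12e-07), as did Cox7c, from 41 and 39.1 to 27.2 and 31.1 CPM (log2 -0.45, adjusted p = 0.00239). Ndufs1, the largest iron-sulfur subunit of complex I, fell from 163 and 170 to 129 and 126 CPM (log2 -0.38, SE 0.0646, adjusted p = 3.52e-05), and Ndufs4, an accessory subunit whose loss is a known cause of Leigh syndrome, from 84.6 and 83.8 to 62 and 68.3 CPM (log2 -0.37, adjusted p = 0.00024). Ndufb7 and Ndufb3 of the membrane arm fell by 0.49 and 0.37, and Sdhb fell back by 0.29, to 119 and 121 CPM. The core subunits Ndufv1, Ndufv2 and Ndufs8 fell by 0.20, 0.23 and 0.20, Cox7a2 by 0.34, Cox6b1 by 0.16 and Cox4i1 by 0.14. Of these, Cox7a2 was called in all 16 settings. The calls of Ndufs8 and Cox6b1 were each lost in 7 of 16, that of Cox4i1 in 6, Ndufv1 in 3 and Ndufv2 in 2. With unscaled totals Cox6b1 and Cox4i1 did not pass (adjusted p = 0.156 and 0.147).

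Rises in this step were few. Besides Cox6b2, Ndufv3 rose from 71.4 and 69.8 to 86 and 86.7 CPM (log2 0.29, SE 0.0659, adjusted p = 0.000737), and both calls held in every setting, together with 10 falls (Cox5a, Cox7a2, Cox7c, Ndufb3, Ndufb7, Ndufb8, Ndufb9, Ndufs1, Ndufs4 and Sdhb). Of those falls, Cox5a, Cox7c and Ndufb3 were not tested in the setting limited to genes under 1% of shared stretches. Ndufc2 rose from 49.4 and 52.1 to 58.9 and 64 CPM and Cox8a, the general form of subunit 8, from 83.7 and 80.6 to 98.4 and 94.6 CPM (adjusted p = 0.00236 and 0.00781). With GC and length offsets Cox8a stood at log2 0.01 (adjusted p = 0.916), and the calls of Cox8a and Ndufc2 were each lost in 3 of 16 settings. Cox4i2 rose from 0.503 and 0.555 to 1.03 and 1.1 CPM, still under its ES level, and its call was lost in 6 of 16 settings. No core subunit of complex III other than Uqcrfs1 (log2 -0.2, adjusted p = 0.0131) passed. The neuron markers summed to 3980 CPM in both day 8 libraries and 2090 to 2120 CPM at day 16, while the mesenchyme markers went from 1440 to 1700 CPM to 9940 to 11400 CPM and the astrocyte markers from 4.38 to 5.15 CPM to 661 to 702 CPM, and their part in the changes was not tested.

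Day 16 against ES control carried the sum of both steps. Of the 63 tested, 14 rose and 28 fell (22.2 and 44.4%), against 41.5% of all genes that rose and 39.6% that fell, with a median of -0.12 against 0.03. The split turned to 28 higher and 17 lower with unscaled totals, which shift the median of all genes by 0.20, and to 29 and 18 with GC and length offsets. Ndufa7 stood at 63.3 and 64.5 CPM against 123 and 138 CPM in ES control (log2 -1.03, SE 0.0755, adjusted p = 9.7e-11). Cox7c (57.9 to 29.1 CPM, log2 -0.99) and Cox5a (152 to 79.8 CPM, log2 -0.93) were near 0.5 times their ES level. The 15 falls that held in every setting include Sdha, Sdhd, Uqcrc1, Uqcrfs1, Ndufs4 and Ndufv2. The 5 rises that did were Ndufa5 (18.4 to 32.6 CPM, log2 0.83), Ndufa3 (27.8 to 38.2 CPM), Ndufa8 (45.1 to 59.7 CPM), Ndufa2 (48.7 to 62.1 CPM) and Cox6a2. Among the 15 falls, Cox5a, Cox7c, Ndufa7 and Ndufs6 were not tested in the setting limited to genes under 1% of shared stretches. Uqcrq rose from 23.7 to 39.2 CPM (log2 0.73, adjusted p = 0.00503) and Ndufb2 from 15.9 to 21.6 CPM (log2 0.45, adjusted p = 0.00315).

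**Figure D3:**
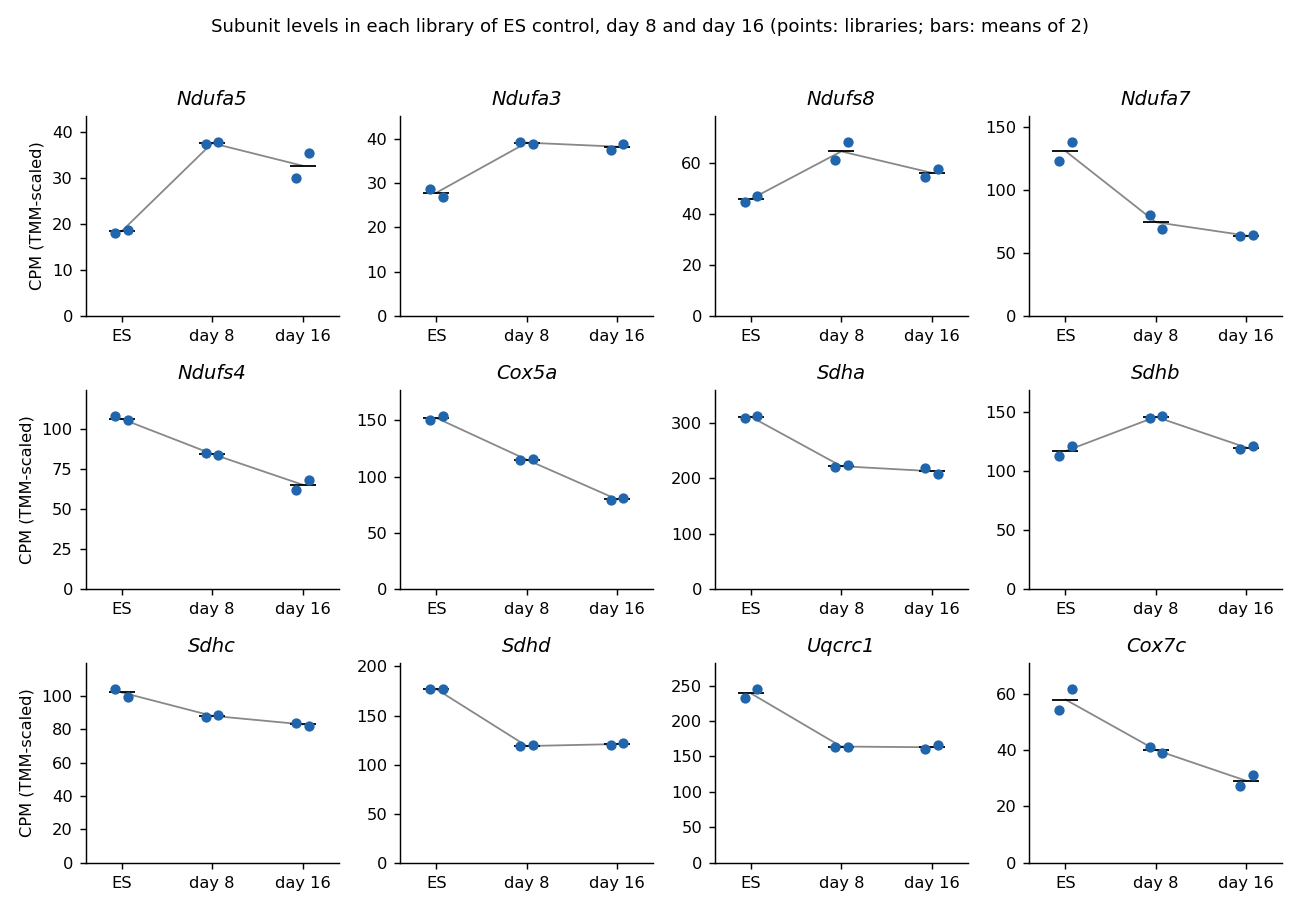
CPM with TMM library sizes (y axis, from 0) of 12 subunits in ES control, day 8 and day 16, with a point for each library and a bar for the mean of 2. Ndufa5 and Ndufa3 rise to day 8 and stay up, Sdhb rises and returns while Sdha and Sdhd fall and stay down, and Cox5a, Cox7c and Ndufs4 fall at each step.

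The summed level of all 66 members was 5543 ± 172 CPM (SD, n = 2) in ES control, 5140 ± 88.6 at day 8 and 4762 ± 113 at day 16. With unscaled totals the same sums were 5163, 5267 and 5089 CPM, so the decline of the sum rests on the scaling.

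GW3965 alone and LG268 alone left the subunits without a call in ES cells. For GW3965, 0 of 63 rose or fell, against 0.309% of all genes that rose and 0.0117% that fell, and for LG268 0 of 63, against 0.518% that rose and 0.332% that fell. At an unadjusted p under 0.05 edgeR listed 2 members for GW3965 and 1 for LG268, and DESeq2 and limma-voom called 0. A fit of the 4 libraries alone called 4 members higher for GW3965 and 0 for LG268. The 95% interval lay within 0.5 on either side of 0 on the log2 scale for 56 of 63 members with GW3965 and 58 with LG268, and the medians were 0.03 and 0.02. Cox4i1, for example, was at 365 and 377 CPM in control and 374 and 380 CPM with GW3965.

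The labels call 2 ES libraries treated with both ligands, although the deposited tables carry the control abbreviation beside the ligands in their names, and the labels are followed here. With both ligands 2 subunits rose and 7 fell against ES control, 3.17 and 11.1% of those tested, against 4.83% of all genes that rose and 6.47% that fell. The falls were Uqcrq, Uqcr11, Uqcr10 and Uqcrc1 of complex III, Ndufa6 and Ndufa13 of complex I, and Cox8a. Ndufa6, a small accessory subunit, went from 76.3 and 80.7 to 58.8 and 64.2 CPM (log2 -0.35, SE 0.0679, adjusted p = 0.00244), and Cox8a from 101 and 108 to 86.2 and 80.9 CPM (log2 -0.32, adjusted p = 0.00673). Uqcrq went from 21.3 and 26.2 to 7.07 and 18.9 CPM (log2 -0.86, SE 0.249, adjusted p = 0.031), Uqcr11 from 20.4 and 24.2 to 13.1 and 19.4 CPM (adjusted p = 0.047) and Ndufa13 from 56.6 and 58.4 to 43.7 and 51.9 CPM (adjusted p = 0.0285). The rises were small, Uqcrc2 from 282 and 283 to 360 and 300 CPM and Sdha from 308 and 313 to 369 and 333 CPM (log2 0.22 and 0.18). For Uqcrq, Uqcrc1, Uqcrc2, Sdha, Uqcr11 and Ndufa13 the both-ligand libraries lay further apart from each other than the nearer of them lay from control. Without the first both-ligand library 2 members were called and Uqcrq had log2 -0.33, and without the second 14 were called and Uqcrq had log2 -1.75. Without the first control library 2 were called, and without the second 1. A fit of the compared libraries alone called 0, unscaled totals gave 1 higher and 9 lower, GC and length offsets left 4 lower and 0 higher, and no call held in every setting, although Ndufa6 was lost only in the fit of the compared libraries (adjusted p = 0.0714).

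Set against a single ligand, the both-ligand cultures again had mostly lower calls. Against GW3965 alone 1 member was higher and 12 were lower (1.59 and 19%), against 3.68 and 6.98% of all genes, and against LG268 alone 0 were higher and 8 lower (0 and 12.7%), against 1.63 and 2.57%. These comparisons and the one with control use the same both-ligand libraries. Uqcrq was at 29.8 and 31.7 CPM with GW3965 and 23.9 and 28.4 CPM with LG268 (log2 -1.23 and -0.99 for both ligands). Ndufs7, a core iron-sulfur subunit, was at 52.4 and 47.6 CPM with GW3965 and 26.2 and 42 CPM with both (log2 -0.55, adjusted p = 0.0158). Ndufa13 had log2 -0.39 and -0.41 against GW3965 and LG268, and Cox8a -0.36 against each. Against GW3965, Uqcr11 had log2 -0.48 and Uqcrc2 0.23, and against LG268 Ndufa6 had -0.41. Ndufb10 was at 54.9 CPM with GW3965 and 42.4 CPM with both, and Ndufa2 at 54.4 CPM with LG268 and 42.1 CPM with both (log2 -0.37 for each). Without the first both-ligand library 2 members were called against each ligand, and without the second 22 and 13. Without the first GW3965 library 2 were called, and without either LG268 library 1, with GC and length offsets giving 5 and 2 and the fit of the compared libraries 0 in both.

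At day 16 GW3965 changed few subunits. Of 63 tested 1 rose and 1 fell (1.59% each), against 13% of all genes that rose and 18.7% that fell. The split was 2 higher and 0 lower with DESeq2 size factors, 3 and 0 with unscaled totals and 2 and 1 with GC and length offsets. The 95% interval was within 0.5 of 0 for 57 of 63 members, and all 4 complexes had medians between -0.04 and 0. Ndufa13, an accessory complex I subunit also known as GRIM-19, was at 67.1 and 71.1 CPM without and 59.7 and 59.8 CPM with GW3965 (log2 -0.21, SE 0.0714, adjusted p = 0.0301). Cox6a2 rose from 0.576 and 0.606 to 1.57 and 1.62 CPM, from 14 and 22 to 52 and 53 counts (log2 1.42, SE 0.483, adjusted p = 0.0295). Each of the 2 calls was lost when any 1 of the 4 libraries was left out. Over all settings the call of Ndufa13 was lost in 9 of 15, with log2 from -0.24 to -0.16. The call of Cox6a2 was lost in 4 of 16, with log2 from 1.40 to 1.47. Ndufv1, Ndufs1, Sdhb, Sdha and Uqcrc1 stayed between log2 -0.01 and 0.03. The muscle markers were at 67 to 149 CPM without and 70.8 to 91.4 CPM with GW3965, the mesenchyme markers at 9940 to 11400 and 4590 to 5790 CPM, the neuron markers at 2090 to 2120 and 3100 to 3310 CPM, the astrocyte markers at 661 to 702 and 205 to 332 CPM, and their part was not tested.

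At day 17 GW3965 lowered a set of complex I subunits. Of 63 tested 5 rose and 16 fell (7.94 and 25.4%), against 17.2% of all genes that rose and 18% that fell, and the median was -0.07 against 0.02. Complex I had 0 rises and 11 falls among 35, complex II 0 and 1, complex III 2 and 2, and complex IV 3 and 2. The falls in complex I included Ndufs4, Ndufs8, Ndufv1, Ndufa7, Ndufa9, Ndufb9, Ndufs3, Ndufa10, Ndufv2 and Ndufb6, these 10 between log2 -0.35 and -0.28. Of the core subunits among them, Ndufv1 went from 101 and 108 to 83.6 and 81 CPM (log2 -0.34, SE 0.0665, adjusted p = 0.00048) and Ndufs8 from 31.6 and 32.2 to 24 and 26.3 CPM (log2 -0.34, SE 0.0942, adjusted p = 0.00813). The accessory subunits Ndufs4 (44.2 and 48.2 to 35.7 and 36.8 CPM) and Ndufa9 (32.9 and 36 to 25.3 and 29.4 CPM) had log2 -0.35 and -0.33. Sdhb fell from 46.2 and 48.7 to 35.8 and 39 CPM (log2 -0.34, adjusted p = 0.00108), Uqcrc1 by 0.29 and Uqcrc2 by 0.21, while Sdha, Sdhc, Sdhd, Cox4i1 and Cox5b did not pass. Among the 10 complex I falls, the call of Ndufb6 was lost in 6 of 15 settings, Ndufs3 in 5 of 14 and Ndufa9 in 2 of 15. Those of Ndufs8, Ndufa7 and Ndufv2 were each lost in 1. Ndufs3 shares 35.8% of its 50-base stretches with 2 pseudogenes.

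**Figure D4:**
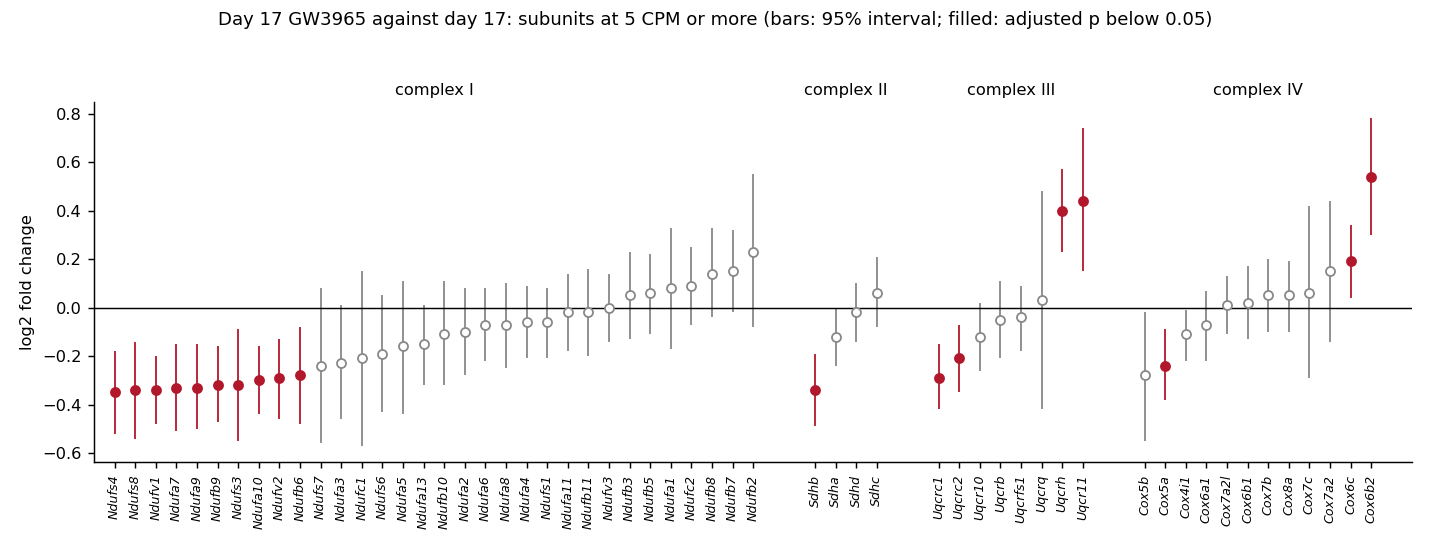
Log2 fold change with 95% interval (y axis) of 56 members at 5 CPM or more in the day 17 or day 17 GW3965 group, sorted within each complex. Filled red points passed the test, with 10 of the 11 falls of complex I shown and no rise there, and with Uqcrh, Uqcr11, Cox6c and Cox6b2 above 0 in complexes III and IV.

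The rises at day 17 were in complexes III and IV. Cox6b2 went from 11.5 and 13.1 to 17.8 and 17.7 CPM (log2 0.54, SE 0.115, adjusted p = 0.00118), and its share of the pair with Cox6b1 from 16.2 and 16.2% to 21.6 and 21.7%. Uqcrh rose from 71.7 and 81.1 to 97.8 and 104 CPM (log2 0.4, SE 0.0812, adjusted p = 0.00069), Uqcr11 from 19.7 and 18.6 to 26.3 and 25.9 CPM (log2 0.44, adjusted p = 0.0189) and Cox6c from 31.2 and 32.1 to 33.8 and 38.3 CPM (log2 0.19, adjusted p = 0.0468). The call of Cox6c was lost in 8 of 14 settings and that of Uqcr11 in 4 of 14. Cox4i2 had 4 and 1 counts without and 10 and 13 with GW3965 (adjusted p = 0.0151). Cox6a2 fell from 3.59 and 3.62 to 0.893 and 0.715 CPM (log2 -2.16, SE 0.473, adjusted p = 0.00141), where at day 16 it was higher with GW3965, and the difference between the days was not tested because their files differ. Ndufa12, which shares 26.2% of its 50-base stretches with 1 pseudogene, had only 15 and 5 counts without and 7 and 2 with GW3965. Uqcrb, with 43.2% shared, had 601 counts or more in every library. The part of shared stretches in these values was not tested.

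Of the day 17 calls, 2 rises (Cox6b2 and Uqcrh) and 7 falls (Cox6a2, Ndufa10, Ndufb9, Ndufs4, Ndufv1, Sdhb and Uqcrc1) held in every setting. Uqcrh, with 7.14% of its 50-base stretches shared, was not tested in the setting limited to genes under 1%. The split was 6 higher and 11 lower with unscaled totals and 5 and 21 with GC and length offsets, and 13 were called without the second day 17 library. The 4 astrocyte markers, all detected, summed to 2340 to 2710 CPM without and 1400 to 1920 CPM with GW3965, the neuron markers to 1610 to 1640 and 1840 to 2020 CPM, and the mesenchyme markers to 8200 to 9120 and 8170 to 9000 CPM. Their part in the subunit values was not tested.

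The GW3965 response at day 16 was compared with that in ES cells by a test of the difference itself. Of 63 members 0 had a higher and 1 a lower response at day 16, against 4.86% of all genes higher and 9.89% lower. That member was Ndufa13, at 56.6 and 58.4 against 64.1 and 61.3 CPM with GW3965 in ES cells and 67.1 and 71.1 against 59.7 and 59.8 CPM at day 16 (difference of log2 changes -0.34, SE 0.102, adjusted p = 0.0311). Exons of Ndufa13 (chr8:69894180-69902558, minus strand, GRCm38) overlap the antisense gene Tssk6, and 1.41% of its 50-base stretches are shared with a pseudogene.

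For other genes of the pathway, the shares over all genes to read against are 39.7% higher and 39.1% lower at day 8, and 29.4 and 32.2% from day 8 to day 16. Of 19 glycolysis genes 19 fell to day 8 and 0 rose (median log2 -1.98), led by the glucose transporter Slc2a3 (4360 to 177 CPM), and 14 rose from day 8 to day 16 and 1 fell. Of 76 mitochondrial ribosomal protein genes 13 rose and 38 fell to day 8 (median -0.18) and 1 rose and 42 fell from day 8 to day 16 (median -0.24). In ATP synthase 6 of 18 rose (33.3%) and 7 fell (38.9%) at day 8, near those shares. Its catalytic subunit Atp5b went from 2080 to 1250 CPM (log2 -0.73, adjusted p = 5.33e-11), and Atp5k from 39.2 to 55.7 CPM (log2 0.51). Of 13 TCA cycle genes 3 rose and 7 fell at day 8, and of 36 assembly factors 8 rose (22.2%) and 14 fell (38.9%). The regulators of mitochondrial biogenesis had 4 rises and 11 falls among 17, and Esrrg (0.36 to 49 CPM) and the coactivator Ppargc1a (0.105 to 5.52 CPM) rose while Esrrb (230 to 28.9 CPM), also an ES marker, and Polg (571 to 75.1 CPM), the mitochondrial DNA polymerase, fell.

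Ndufa4l2, a paralog of Ndufa4 known to be induced by low oxygen, went from 29.1 CPM in ES control to 0.925 CPM at day 8 and 12.1 CPM at day 16 (adjusted p = 1.28e-11 and 1.23e-08), and from 1.17 to 7.33 CPM with GW3965 at day 17 (adjusted p = 1.71e-05). In the same day 17 comparison, where 17.2% of all genes rose and 18% fell, 16 of 19 glycolysis genes rose and 1 fell (median 0.75), with Ldha from 401 to 858 CPM and Slc2a1 from 89.2 to 206 CPM. There 32 of 76 mitochondrial ribosomal genes fell and 3 rose, 7 of 13 TCA cycle genes fell and 0 rose, and 4 of 18 ATP synthase genes fell (22.2%) and 2 rose (11.1%). At day 16, where 13% of all genes rose and 18.7% fell, GW3965 gave 5 rises and 9 falls in glycolysis, with Slc2a1 from 292 to 157 CPM, and Pprc1, a coactivator related to Ppargc1a, fell at both days (log2 -0.4 and -0.64). With both ligands in ES cells Atp5d, a subunit of the ATP synthase stalk, went from 90.3 to 48.5 CPM (log2 -0.89, adjusted p = 4.7e-05) and Cyc1 from 214 to 180 CPM (log2 -0.25, adjusted p = 0.0115), while Etfdh, which feeds electrons from fatty acid oxidation into the chain, rose from 39.2 to 57.1 CPM (log2 0.54), and from 39.2 to 51.3 CPM with LG268 alone (log2 0.39, adjusted p = 0.0197).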

How the data were processed

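The deposited values are counts of reads per gene symbol, 1 table per library, 18 in all. Per the submitters' processing notes the authors used TopHat2 2.0.7, Cufflinks 2.0.2, HTSeq 0.6.0 and Cuffdiff 2.0.2 with the mm10 build; their order, the annotation and the strand setting are not given in the sources used here. Rows that name no gene (no feature, aligned more than once and the like) were left out of totals and tests; reads without a feature were 42.14 to 65.92% of a library.

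All 18 libraries entered 1 edgeR 4.0.16 quasi-likelihood fit with 9 group means, TMM scaling and filterByExpr, in R 4.3.3. Tests were two-sided, and Benjamini-Hochberg adjustment ran over 17166 genes within each of 11 comparisons, with a threshold of 0.05 and no minimum fold. The fit had 9 residual degrees of freedom and was tested on simulated data. CPM values use TMM library sizes. A total of 3 counts equals 0.067 to 0.179 CPM, which covers counting error only. Alternatives used DESeq2 1.42.0, limma 3.58.1 and GC and length offsets (mgcv 1.9.3). Lengths and positions come from GENCODE on GRCm38, which matched 98.37% of symbols. Same-numbered libraries did not deviate together (36 pairs, correlations -0.096 to 0.0691), so the numbers were not used as pairs. Members, gene lists and markers were chosen with earlier results of these data known. Genes were named by a rule, the core subunits, the isoform pairs and per comparison the 5 largest called rises and falls among members at 5 CPM or more whose libraries do not overlap between the groups. Core subunits are not given in every comparison. Any other gene named was chosen after its values were seen. The values of 1 complex I gene are not reported here, although counts over the members include it.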

Additional observations from a re-analysis of the deposited data

Results flagged for a closer look

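The GW3965 response of Ndufa13 differed between day 16 and ES cells by a test of the difference itself (log2 -0.34, SE 0.102, adjusted p = 0.0311 in edgeR's quasi-likelihood test). Over the other settings the difference ran from -0.37 to -0.23 with adjusted p of 0.00784 to 0.129, and it was not called in 11 of 18.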

How the results depend on the processing

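Leaving out 1 library at a time gave 0 to 0 calls for GW3965 and for LG268 in ES cells, 1 to 14 for both ligands against control, 2 to 22 against GW3965, 1 to 13 against LG268, 29 to 38 for day 8, 16 to 22 for day 16 against day 8, 33 to 39 for day 16 against ES control, 0 to 1 for GW3965 at day 16, 13 to 17 at day 17 and 0 to 1 for the difference between GW3965 responses. An arm left with 1 library is assumed to vary like the other groups. A fit of only the libraries compared called 4 members for GW3965 in ES cells and 0 for both ligands against control, GW3965 or LG268, and GC and length offsets called 4, 5 and 2 in those 3. Among genes with under 1% of shared 50-mers 1 member was called for GW3965 at day 16 and 0 for the difference between GW3965 responses, because Ndufa13, with 1.41% shared, is left out there by construction. For the difference between GW3965 responses 3 members were called with no filter and without the both-ligand libraries, and 0 with DESeq2 size factors, without the day 17 libraries, with GC and length offsets and with unscaled totals. Apart from the shared 50-mers, the cause of these differences was not tested. The fits with unscaled totals and without the both-ligand libraries were added after seeing the data.

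GC and length offsets turned the day 8 change of Cox6c to 0.06, Ndufa6 to 0.02, Ndufv2 to 0.00 and Uqcr10 to 0.21, and the day 16 change from ES control of Cox6c to 0.02, Ndufa9 to 0.14 and Ndufv1 to 0.08. Unscaled totals turned the last comparison to 0.03 for Ndufa9, 0.00 for Ndufb7 and 0.01 for Ndufv1. With unscaled totals the summed level of the members was 5163 CPM in ES control, 5226 with GW3965, 5213 with LG268, 4983 with both, 5267 at day 8, 5089 at day 16 and 5274 at day 16 with GW3965. In the day 17 files it was 3369 CPM at day 17 and 3340 CPM at day 17 with GW3965. These files list reads aligned more than once apart, so the 2 sums are set beside each other only. With the replicate number as a block, 18 members rose and 23 fell at day 8, 5 and 19 from day 8 to day 16, 15 and 28 from ES control to day 16, 1 and 1 with GW3965 at day 16, 5 and 15 at day 17, and for both ligands 1 and 7 against control, 1 and 12 against GW3965 and 0 and 7 against LG268. The block moved no total of called members by over 1.5 times, although the rises with both ligands against control went from 2 to 1. Over all called changes of members and all settings, 2109 values kept their call, 364 lost it and 10 changed sign. A change of sign was counted whether or not the new value passed the test, and these 10 include values at 0.00.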
